A study of Homo sapiens with 7 samples.

Results

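KO3 is a clone of BHT-101, a human anaplastic thyroid carcinoma cell line, in which both alleles of the histone methyltransferase gene ASH1L carry a premature stop after residue 2129. It was chosen by its label and is 1 of 7 libraries in the series: it was compared with wild-type BHT-101 cells, of which 3 biological replicates were sequenced (WT1 to WT3), and set beside 3 other ASH1L clones with 1 library each. KO1 has the stop after residue 413, KO2 after residue 610, and KO4 after residues 2169 and 2174, and the label of KO4 alone does not say that both alleles are affected. All cells were grown in DMEM with serum, pyruvate and antibiotics, total RNA was sequenced, and the labels give neither the editing method nor an unedited clone that went through single-cell outgrowth. Because KO3 is 1 clone and 1 library, what the stop codon does and what this clone differs in by descent cannot be told apart.

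ASH1L is a trithorax-group protein that dimethylates lysine 36 of histone H3, a mark of active chromatin that opposes Polycomb repression. Its catalytic SET domain lies in the C-terminal part of the protein and is followed by a bromodomain, a PHD finger and a BAH domain. As background, a stop after residue 2129 falls ahead of the SET domain.

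The KO3 codon lies in coding exon sequence of ASH1L on chromosome 1 (GENCODE release 29, hg38), in exon 11 of 28 of the longer coding transcript, ENST00000368346, and the residue is its 2129th of 2969 codons, so that 71.7% of the codons lie before the stop. In the other full-length transcript, ENST00000392403, with 2964 codons, the same residue number also falls in exon 11. The labels do not say which transcript was counted. The reference coding strand around it is shown because it holds the late stops of both KO3 and KO4, with the codons of residues 2129, 2169 and 2174 in capitals, from 155370976 down to 155370779 on the minus strand. It is the unedited reference, and the alleles of the clones were not analysed here.
ASH1L exon 11: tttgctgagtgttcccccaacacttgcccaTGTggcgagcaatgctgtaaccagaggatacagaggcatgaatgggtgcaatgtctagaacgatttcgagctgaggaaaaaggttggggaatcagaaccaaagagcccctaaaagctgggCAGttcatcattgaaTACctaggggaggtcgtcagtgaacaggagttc

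ASH1L mRNA was lower in KO3. Its log2 RPKM (reads per kilobase of gene, scaled to library size, on the log2 scale) was 3.34, 3.30 and 3.22 in WT1, WT2 and WT3 and 2.42 in KO3, a difference of -0.87 ± 0.11 (SE) or 0.548 of the WT level (limma adjusted p = 0.00233). KO3 thus stood below all 3 WT samples, and KO1 (2.69) and KO2 (2.54) did as well, while KO4 (3.74) stood above them. An exact two-sided permutation test of 1 sample against 3 gives p = 0.25, the smallest it allows. With the spread pooled over WT and the other clones, the adjusted p was 0.38. A gene total does not show where the coding frame ends and so does not check the stop itself.

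Around ASH1L, 37 genes within 500 kb on either side, ASH1L included, passed the level filter, of which 12 were called higher and 2 lower, with a median difference of 0.24. TRIM46 and KRTCAP2, 2 of the 12, passed only through KO3, and the other 35 genes held 10 higher calls with a median of 0.22. Over all tested genes 15.0% were called higher. MSTO1, a mitochondrial fission and fusion factor, is a near neighbour on the opposite strand upstream of ASH1L and had levels of 2.85, 2.63 and 2.71 in WT and 3.76 in KO3 (adjusted p = 0.00209), against 2.33, 2.23 and 2.43 in KO1, KO2 and KO4. Its copy MSTO2P shares sequence with it and had 1.58, 0.69 and 1.09 in WT and 2.62 in KO3, so reads of the pair may have been divided. The antisense transcript ASH1L-AS1, which overlaps the start of ASH1L, had 1.03, 0.90 and 1.05 in WT and 1.56 in KO3. These neighbours were singled out after their values were seen.

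Of the 13142 genes in the table, 11315 had a level above 0 in at least 3 libraries or in KO3, 161 of them only through KO3. KO3 itself counted among the 3 libraries, so the 161 leave out genes that reached 3 libraries only with KO3. Read depth is not given. From 7 genes tied at the lowest value, with an assumed prior of 0.25 reads, and from only 2 low values in KO3, the lower taken as 1 read, the KO3 library held about 0.76 of the mean library, and 1 read in KO3 stands 2.65 log2 units above the level without reads. Across tested genes Pearson's r was 0.989 to 0.995 between WT samples and 0.909 to 0.917 between KO3 and WT, across genes, which are not independent replicates. Of 7 thyroid follicular markers only PAX8 was analysed here, and at -2.97, -2.63 and -2.23 in WT and -4.09 in KO3 it was below the filter. The 6 epithelial markers summed to 562 to 680 RPKM in WT and 287 in KO3. Of 15 leukocyte markers 3 were analysed, with a sum of 9.64 to 12.3 RPKM in WT, most of it CD3D, and 1.15 in KO3. Also, 4 of 15 fibroblast and endothelial markers summed to 51.4 to 55.4 RPKM in WT and 70.2 in KO3, most of it LUM. Of these 4, LUM and COL1A1 stood above WT in KO3, while PDGFRA (3.09 to 3.33 in WT, 2.37 in KO3) and PECAM1 (-1.86 to -1.62, then -4.31) stood below. The part of other cells in the results was not tested, and in bulk RNA fewer cells of a type and less RNA per cell cannot be told apart.

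Against WT, limma called 3926 of 11315 genes, or 34.7%, at an adjusted p below 0.05, with 1698 higher in KO3 (15.0%) and 2228 lower (19.7%). At least 1 log2 unit, a doubling or more, separated 989 called genes from WT (8.74%), 375 higher and 614 lower (3.31% and 5.43%). Genes above 0 in KO3 but in fewer than 3 libraries were selected by a high KO3 level. They make up 101 of the 1698 higher calls and 83 of the 375. Without them 1597 of 11154 genes were called higher (14.3%), 292 by at least 1 log2 unit. That remainder still holds genes that reached 3 libraries only with KO3 counted, such as MT1F, SPOCK1, SLITRK4 and PRICKLE1. KO3 lay outside the WT range in most genes, above all 3 WT samples in 39.7% and below them in 41.8%. The spread in this test comes from the 3 WT samples alone, and the clones vary more: the SD of KO1, KO2 and KO4 exceeded that of WT in 83.9% of genes, with medians of 0.27 and 0.10 log2 units. When the spread was pooled over WT and the other clones, 37 genes were called (0.327%), 13 higher (0.115%) and 24 lower (0.212%). Without WT2 the WT-only test called 1857 genes.

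Against KO1, KO2 and KO4, with the spread of those 3 clones, limma called 0 genes (lowest adjusted p = 0.614, 751 genes at an unadjusted p below 0.05, or 6.64%). With the pooled spread, a choice made after that result was seen, 71 genes were called (0.627%), 24 higher in KO3 (0.212%) and 47 lower (0.415%). The pooled spread is still smaller than that of the clones alone, which makes its p-values too small. In 29 genes (0.256%), 10 higher (0.0884%) and 19 lower (0.168%), KO3 was called in both pooled tests and lay outside all 6 other libraries. Both tests use the same KO3 library. In the text, higher and lower mean called against WT with the WT spread, and the pooled values follow. Pooled values and counts are those against WT unless the other clones or both pooled tests are named. Each list count stands against the shares over all tested genes, 15.0% higher and 19.7% lower.

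The endoplasmic reticulum (ER) folds secreted and membrane proteins with a set of lumenal chaperones, disulfide isomerases and glycoprotein lectins. When unfolded protein accumulates, 3 membrane sensors, ATF6, IRE1 (ERN1) and PERK (EIF2AK3), signal to the nucleus: ATF6 and the XBP1 factor made after IRE1 splicing induce the chaperones and the degradation machinery, and PERK acts through ATF4 on amino-acid and stress genes.

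ER chaperones and folding enzymes were mostly higher in KO3: of 34 tested, 22 were higher and 2 lower, and KO3 lay above all 6 other libraries in 28. The list was written after the genes highest in KO3 had been seen, so its count describes the group and supports nothing further. A broader list of 40 ATF4 and unfolded protein response genes, drawn up earlier, had 8 higher and 2 lower with a median of -0.25. Without WT1 it had 9 higher and 18 lower, and without WT3 13 and 5. For comparison, KO3 lay above all 6 others in 20.5% of all tested genes. The list median was 0.67 in KO3, where all tested genes had -0.01, and -0.29, -0.20 and -0.38 in KO1, KO2 and KO4. With the pooled spread 6 of the 34 were called higher and 0 lower.

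The Hsp70 of the ER lumen, HSPA5 (BiP), had log2 RPKM levels of 8.41, 8.48 and 8.55 in WT and 9.93 in KO3, 2.73-fold higher (adjusted p = 0.000318). The other clones, at 8.41, 8.56 and 7.96 in KO1, KO2 and KO4, straddled the WT range, and KO3 overlapped none of them. Its pooled adjusted p was 0.0863. The ER Hsp90, HSP90B1 (GRP94), stood at 8.98, 9.09 and 9.05 in WT, 10.15 in KO3, and 8.45, 8.67 and 8.52 in the other clones (2.16-fold, adjusted p = 0.0008, pooled 0.0465).

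Calreticulin, CALR, the lectin that holds glycoproteins during folding, was nearly constant in WT at 8.65, 8.66 and 8.66 and reached 10.08 in KO3, 2.68-fold higher (adjusted p = 0.000235, pooled 0.0167). KO1, KO2 and KO4 had 8.35, 8.23 and 8.22, all below WT. Calnexin, CANX, its membrane-bound counterpart, had 6.46, 6.51 and 6.42 in WT and 6.70 in KO3 and was not called. The disulfide isomerases rose with the soluble lectin: PDIA3 went from 7.15, 7.25 and 7.21 to 8.27, PDIA6 from 7.42, 7.56 and 7.54 to 8.66, PDIA4 from 8.23, 8.29 and 8.35 to 9.50, and P4HB from 7.58, 7.53 and 7.66 to 8.43. PDIA3 and PDIA6 were also called with the pooled spread, at adjusted p of 0.0394 and 0.0465. PDIA5 differed from the WT mean by -0.25 and ERO1A, the oxidase that recharges the isomerases, by -0.08, and neither was called.

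The largest change of the group was in CRELD2, a small calcium-binding protein of the ER lumen that ER stress induces. It stood at 3.35, 3.30 and 3.34 in WT and at 6.25 in KO3, 7.58-fold higher (difference 2.92 ± 0.10, adjusted p = 1.54e-05, pooled 0.0468), with 2.78, 3.69 and 2.86 in the other clones. ALG12, a mannosyltransferase gene that overlaps CRELD2 head to head, had 2.70, 2.62 and 2.63 in WT and 3.92 in KO3. Strand use in the counting is not given, so reads over the overlap cannot be assigned. SDF2L1, a partner of the co-chaperone DNAJB11, had 4.80, 4.64 and 4.43 in WT and 6.48 in KO3 (3.63-fold, adjusted p = 0.000449, pooled 0.0279), and 3.96, 3.89 and 3.85 elsewhere.

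Several partners of HSPA5 were higher too. The co-chaperones DNAJC3 (3.82, 3.81 and 3.62 in WT, 5.12 in KO3) and DNAJB11 (3.99, 3.96 and 3.77, then 5.05) and the nucleotide exchange factor HYOU1 (4.68, 4.72 and 4.97, then 5.73) were higher. The exchange factor SIL1 (difference 0.30) and the co-chaperone DNAJB9 (difference 0.26) were not called. NUCB2, a calcium-binding secreted protein, reached 4.77 from 3.18, 3.30 and 3.16. The 2 members that were lower were the cyclophilin PPIC, at 2.61, 2.73 and 2.71 in WT and 1.64 in KO3, and ERP29, at 5.88, 6.07 and 6.31 and then 5.52.

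**Figure D1:**
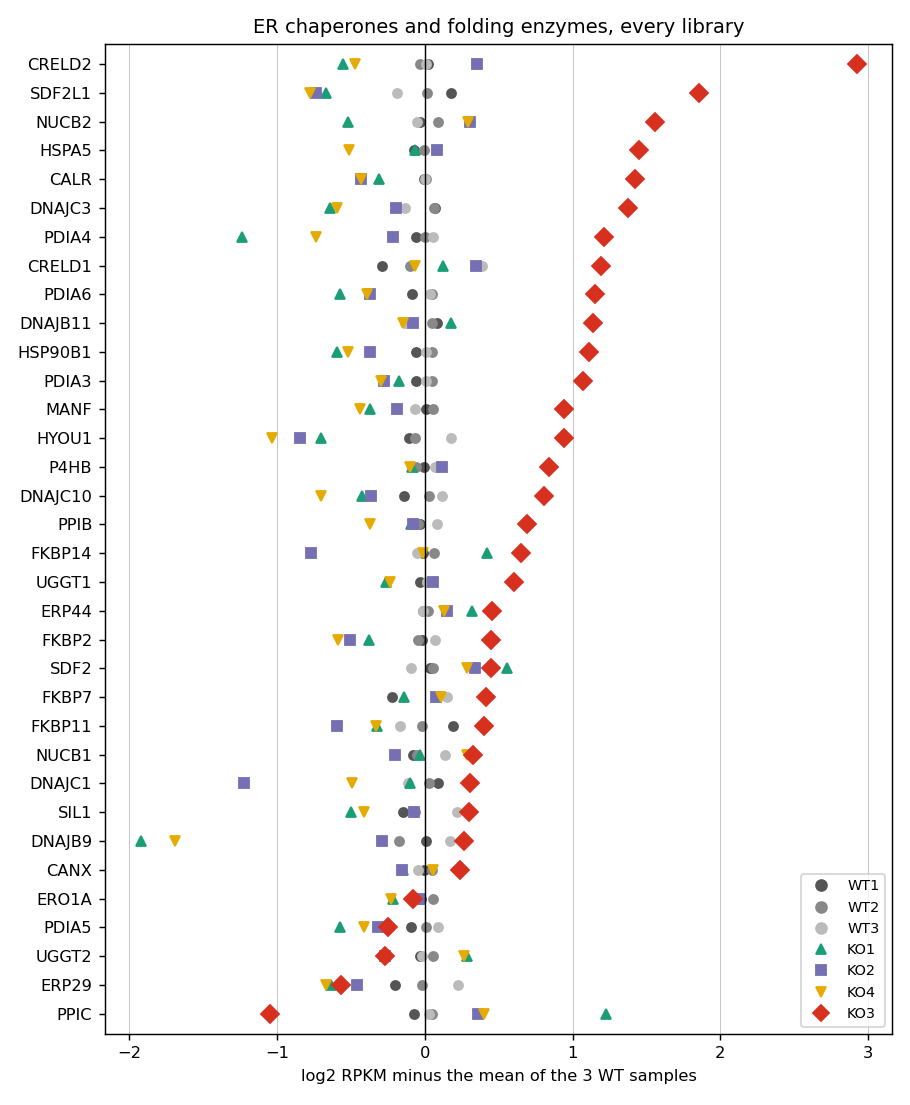
Levels of 34 ER chaperone and folding genes in each library, as log2 RPKM minus the mean of the 3 WT samples (x axis), ordered by the difference in KO3. KO3 (red diamonds) lies to the right of all 6 other libraries in 28 of the 34 genes, with CRELD2 farthest out.

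Promoters of these genes are known to carry the ER stress response element (ERSE, CCAAT and CCACG with 9 bases between), bound by ATF6 and XBP1 with NF-Y, or its variant ERSE-II (ATTGG and CCACG with 1 base between). Both were searched on both strands in RefSeq promoters (GRCh38.p14, 250 bases before to 50 after the start). The ERSE occurs in 27 of 35116 promoters (0.0769%) and ERSE-II in 19 (0.0541%). Promoters were matched for 31 of the 34 genes. Of the 20 whose genes were higher in KO3, 6 held a match, and of the 9 whose genes were not called, 2 did (CANX and NUCB1). The matched stretches of those 6 are shown because their genes include the largest changes of the group, with the fixed letters of each match in capitals.
HSPA5, chr9:125241379-125241421, minus strand: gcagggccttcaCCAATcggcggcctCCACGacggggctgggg
CALR, chr19:12938372-12938414, plus strand: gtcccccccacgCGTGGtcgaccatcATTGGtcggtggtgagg
HSP90B1, chr12:103930204-103930351, plus strand: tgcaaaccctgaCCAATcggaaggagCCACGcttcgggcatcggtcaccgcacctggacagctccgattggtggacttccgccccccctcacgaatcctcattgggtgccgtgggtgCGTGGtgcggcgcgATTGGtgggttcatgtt
CRELD2, chr22:49918542-49918584, plus strand: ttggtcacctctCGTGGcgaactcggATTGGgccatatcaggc
SDF2L1, chr22:21642102-21642136, plus strand: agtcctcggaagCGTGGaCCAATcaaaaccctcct
HYOU1, chr11:119057262-119057402, minus strand: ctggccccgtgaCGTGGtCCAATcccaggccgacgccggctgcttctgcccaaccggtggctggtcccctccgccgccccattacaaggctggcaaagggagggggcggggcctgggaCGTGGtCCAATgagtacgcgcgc
HSP90B1 holds 2 ERSE matches on opposite strands and HYOU1 holds 2 of ERSE-II. A match is a description of letters and does not show binding in these cells.

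Degradation genes of the same pathway were higher in part. Of 22 tested, 10 were higher and 1 lower, and 0 were called with the pooled spread. SEL1L, the scaffold of the HRD1 ubiquitin ligase complex, had 4.22, 4.25 and 4.32 in WT and 5.26 in KO3, and the ligase itself, SYVN1, had 3.51, 3.47 and 3.70 and then 4.37. KO3 lay above all other libraries in both. DERL2, a retrotranslocation factor, differed by 0.74 and reached 3.14. HERPUD1, a stress-induced member of the complex, differed by 0.66 and was not called, and without WT2 only 4 of the 22 were called higher.

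Of 12 sensors and their factors, 0 were higher and 3 lower. Without WT3, 2 were higher and 3 lower. XBP1 differed from the WT mean by -0.24, ATF6 by 0.10, ERN1 by -0.07, EIF2AK3 by 0.33 and DDIT3 (CHOP) by 0.52, and none of these was called. ATF4 stood at 7.36, 7.64 and 7.92 in WT and 6.96 in KO3 (adjusted p = 0.0409), below the other clones at 7.21, 7.23 and 7.15. A gene total does not show splicing of XBP1 or cleavage of ATF6.

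For the ATF4 amino-acid branch the count depended on which WT samples were used. Of 26 tested, 0 were higher and 1 was lower with all 3, against 0 and 17 without WT1 (median -0.98) and 1 and 4 without WT3 (median -0.11). The gene lower with all 3 was SLC38A2, a neutral amino acid transporter (6.52, 6.87 and 6.87 in WT, 5.62 in KO3). The list median was -0.61 in KO3 and -0.71, -0.76 and -0.79 in KO1, KO2 and KO4, which were set against the same WT samples. TRIB3 differed by -1.41 and the asparagine synthetase ASNS by -1.06 without being called, and the list medians of WT1, WT2 and WT3 themselves ran from -0.63 through -0.01 to 0.66.

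Other steps of the secretory pathway had calls in both directions, at about the share of all genes. Among translocon and signal peptidase genes 5 of 24 were higher and 2 lower, among N-glycosylation genes 4 of 25 were higher and 4 lower, and among COPII and COPI coat genes 5 of 29 were higher and 4 lower. In these 3 lists 29.2%, 32% and 31% of the genes were called, where 34.7% of all tested genes were. KO3 lay above all 6 other libraries in 12, 8 and 10 genes of these lists and below them in 3, 5 and 5. Over all tested genes those shares were 20.5% and 19.4%. Set against neighbours within 5 Mb, the N-glycosylation genes had 9 higher and 2 lower, the translocon genes 7 and 3, and the coat genes 4 and 2. Without WT2 the translocon list had 3 higher and 0 lower, and the coat list 2 and 1, and with the pooled spread 0 genes of the 3 lists were called. SEC11C, a signal peptidase subunit, reached 4.12 from 3.22, 3.33 and 3.42. SEC24D, a COPII cargo adaptor, reached 3.96 from 3.01, 3.08 and 3.00, with 2.21, 2.75 and 2.35 in the other clones. The oligosaccharyltransferase subunits DDOST (7.51, 7.54 and 7.68, then 8.30) and OSTC (5.71, 5.88 and 5.81, then 6.68) were higher, while the catalytic subunit STT3A, a gene of distal 11q, was lower (5.50, 5.60 and 5.58, then 4.96) and was also low in KO1, KO2 and KO4 at 4.58, 4.60 and 4.61.

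Metallothioneins are small cysteine-rich proteins that buffer zinc and copper, and metal-responsive transcription through MTF1 drives their genes, which sit together on chromosome 16. All 8 members analysed were higher in KO3, and KO3 lay above all 6 other libraries in each of the 8. The list, too, was written after its leading genes had been seen. Its median was 2.44 in KO3 and 0.00, -0.45 and 0.16 in KO1, KO2 and KO4, and 49 genes between 51 and 62 Mb of that chromosome had a median of 0.17. With the pooled spread 2 were called, MT1M and MT1X.

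MT1G rose most, from 1.16, 1.03 and 1.33 in WT to 6.85 in KO3, 51.3-fold (adjusted p = 1.02e-05, pooled 0.0772), with 3.73, 1.54 and 1.94 in KO1, KO2 and KO4. MT1F was next, at -0.75, -0.37 and -0.60 in WT, 4.79 in KO3, and 2.59, 1.05 and -0.14 in the other clones. KO1 was thus the second highest library for both genes, and MT1F passed the level filter only with KO3 counted. MT1M had 0.25, -0.05 and 0.76 in WT, 4.78 in KO3 (22.1-fold, adjusted p = 0.000207, pooled 0.0394) and 0.36, -0.60 and -0.55 in the other clones. MT1X had 1.11, 0.93 and 1.32 in WT, 3.93 in KO3 (7.02-fold, adjusted p = 0.00016, pooled 0.0313), and 2.18, 1.57 and 1.76 elsewhere.

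The abundant members moved less. MT2A, the major isoform, went from 7.98, 7.98 and 8.28 to 8.94, and MT1E from 7.29, 7.31 and 7.52 to 7.90. MT1A reached 4.27 from 2.01, 2.22 and 2.41, and the pseudogene MT1L reached 6.92 from 5.44, 5.32 and 5.52, where the other clones had 3.90, 3.18 and 3.94. Coding sequences of the family are nearly identical, so the division of reads among members is uncertain.

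**Figure D2:**
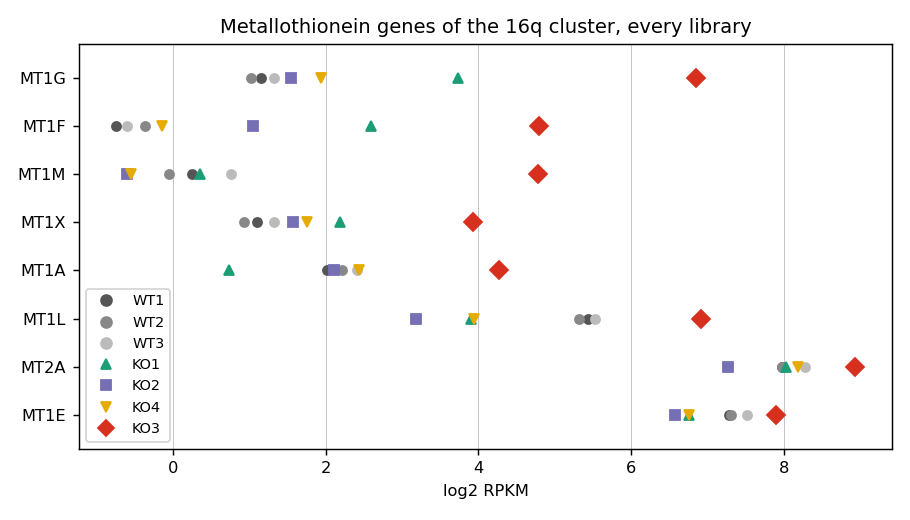
Levels of 8 metallothionein genes in each library (x axis, log2 RPKM), ordered by the difference between KO3 and the WT mean. KO3 is the rightmost point in every row, from 3.93 for MT1X to 8.94 for MT2A, and KO1 is next for MT1G and MT1F.

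The metal response element (MRE, TGCACNC or TGCGCNC, both strands) is the MTF1 motif. At least 4 matches occur in 211 of the 35116 promoters (0.601%). Promoters were matched for MT2A and MT1X, and both hold at least 4. The upstream parts that carry the matches are shown, because they are the promoters of the most abundant member and of one called in both pooled tests, with the fixed letters of each match in capitals.
MT1X, chr16:56682308-56682435, plus strand: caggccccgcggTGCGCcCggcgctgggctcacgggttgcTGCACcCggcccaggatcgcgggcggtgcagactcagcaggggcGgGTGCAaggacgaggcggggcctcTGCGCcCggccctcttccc
MT2A, chr16:56608334-56608583, plus strand: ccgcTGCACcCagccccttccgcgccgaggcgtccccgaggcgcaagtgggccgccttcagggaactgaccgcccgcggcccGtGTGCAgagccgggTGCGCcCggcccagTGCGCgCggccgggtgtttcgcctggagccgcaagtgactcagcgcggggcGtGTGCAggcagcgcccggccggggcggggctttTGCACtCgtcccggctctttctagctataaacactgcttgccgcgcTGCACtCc

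Other zinc genes were mixed, with 5 of 17 higher and 4 lower. SLC30A1, the zinc exporter of the plasma membrane and another MTF1 target, had 3.85, 3.67 and 3.49 in WT and 4.47 in KO3, but KO2 was as high at 4.43. MTF1 itself had 2.06, 2.13 and 2.16 and then 2.55, close to the other clones at 2.48, 2.37 and 2.42. The importer SLC39A10 was lower, at 3.68, 3.74 and 3.45 in WT and 2.72 in KO3, and KO1 had 2.74. SLC39A8, an importer of zinc and manganese, had 0.10, -0.06 and -0.43 in WT, 2.14 in KO3 and 2.55 in KO1. Without WT2, 3 of the 17 were higher and 1 lower, and 0 were called with the pooled spread.

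CDKN2B encodes p15, an inhibitor of the cyclin D kinases CDK4 and CDK6, and lies beside CDKN2A, which encodes p16 and ARF, on 9p21. CDKN2B was at the level without reads in KO3: its log2 RPKM was 3.04, 3.36 and 3.38 in WT, 2.46, 0.77 and 2.76 in KO1, KO2 and KO4, and -9.88 in KO3, the level that its exon length gives for a gene with no reads (-9.88). The size of the difference is therefore set by depth, and no fold is given (adjusted p = 3.94e-06, pooled 0.0161). The gene spans 22002903 to 22009363 of chromosome 9 on the minus strand in hg38.

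CDKN2A, just telomeric of it, was reduced but not lost, at 3.88, 3.90 and 3.88 in WT and 2.41 in KO3, 0.359 of WT (adjusted p = 0.000214, pooled 0.196). KO1, KO2 and KO4 had 4.33, 3.08 and 3.90, and KO3 lay below them all. MTAP, the methylthioadenosine phosphorylase gene next along, had 1.81, 1.84 and 1.62 in WT and 1.18 in KO3 (adjusted p = 0.0261), below the other clones at 2.18, 2.26 and 2.17. Part of CDKN2B resembles CDKN2A in sequence, and how reads that match both were handled is not given.

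Farther out, 5 genes were not called. FOCAD had 2.35, 2.47 and 2.43 in WT and 2.51 in KO3, KLHL9 had 2.47, 2.41 and 2.31 and then 2.12, CAAP1 had 3.39, 3.36 and 3.38 and then 3.46, PLAA had 4.41, 4.46 and 4.28 and then 4.60, and IFT74 had 2.49, 2.63 and 2.62 and then 2.58. TUSC1 was higher (0.84, 0.42 and 0.01 in WT, 2.07 in KO3), with 1.45 to 3.38 in the other clones, and MLLT3 was lower (0.48, 0.27 and 0.08, then -1.73). The 9p genes below 40 Mb had a median of 0.04 in KO3 and of 0.53, 0.40 and 0.35 in KO1, KO2 and KO4. A loss of DNA at CDKN2B was not tested, since the table holds RNA only.

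**Figure D3:**
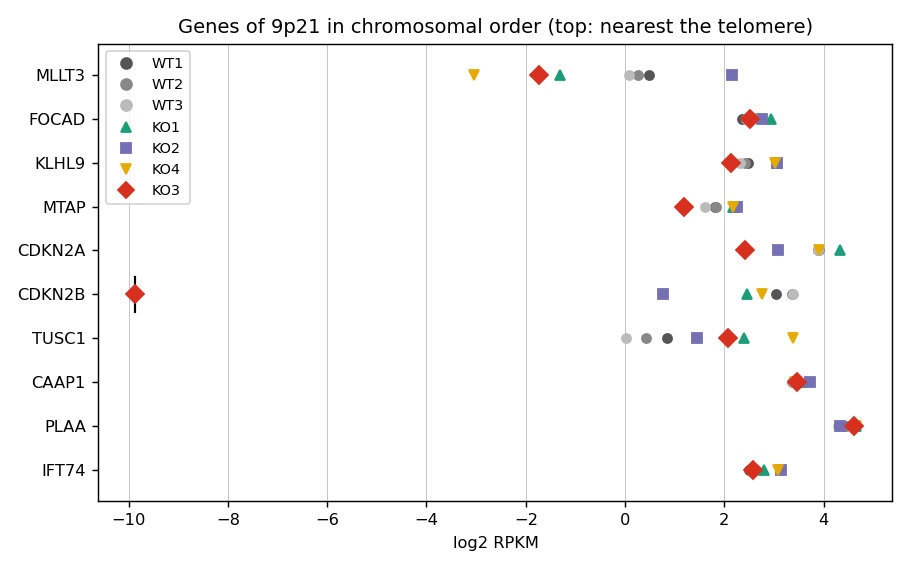
Levels of 10 tested genes around CDKN2B in each library (x axis, log2 RPKM), in chromosomal order, with a vertical mark at the level of -9.88 that CDKN2B would have without reads. KO3 (red diamond) sits on that mark for CDKN2B and below the other libraries for CDKN2A and MTAP, and among the other libraries for FOCAD, CAAP1 and IFT74.

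Other cell-cycle inhibitors differed less. CDKN2C, at 3.23, 2.88 and 2.52 in WT and 2.03 in KO3, and CDKN2D, at 3.01, 2.95 and 2.96 and then 2.30, were lower, and KO2 was lower than KO3 in both. CDKN1A (p21) was higher, at 3.86, 3.33 and 4.29 in WT and 4.95 in KO3 (adjusted p = 0.0387), close to KO1 at 4.78. Among targets of p53, 13 of 26 were higher and 2 lower, with a list median of 0.50, where 15.0% of all genes were higher. FDXR had 0.87, 0.79 and 1.14 in WT and 1.97 in KO3, and ZMAT3 had 1.82, 1.38 and 1.67 and then 2.75, with 2.95, 2.94 and 2.52 in the other clones. Without WT2, 6 of the 26 were called higher, and with the pooled spread 0 were. Of the partners downstream, 2 of 19 G1 cyclin, kinase, RB and E2F genes were higher and 1 lower. Among G2 and M genes 12 of 52 were higher and 3 lower, and among replication genes 3 of 43 were higher and 4 lower. Without WT2 these counts were 0 and 0 for the G1 list, 2 and 3 for G2 and M and 0 and 1 for replication, and with the pooled spread 0 genes of the 3 lists were called. Without WT1 the replication list had 8 higher and 3 lower, and against neighbours the G2 and M list had 4 and 0.

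Besides CDKN2B, 4 of the genes called lower with a matched exon length were at the level without reads in KO3. Transcripts without a matched exon length could not be assessed. SLC6A20, a proline transporter gene, had 0.48, 0.41 and 0.60 in WT, -1.62, 1.83 and -0.50 in the other clones and -10.59 in KO3 (pooled adjusted p = 0.045). PAGE2, a cancer-testis gene of the X chromosome, had 0.74, 0.77 and 0.49 in WT and -7.26 in KO3 (pooled 0.0517). DEFB1, an epithelial antimicrobial peptide, fell from 3.50, 3.93 and 4.27 to -6.79 and had exactly that value in KO1 too. LBP, the lipopolysaccharide-binding protein, had -0.25, 0.48 and 1.34 in WT and -8.83 in KO3.

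Integrins join cells to the matrix as pairs of an alpha and a beta chain. Of 10 tested, 9 were lower in KO3 and 0 higher, with a list median of -0.92, against -0.10, 0.00 and 0.40 in KO1, KO2 and KO4. Over all tested genes 19.7% were lower, and with the pooled spread 1 of the 10 was called. The laminin receptor chain ITGA6 had 5.15, 5.20 and 5.08 in WT, 5.34, 5.28 and 5.38 in the other clones and 3.95 in KO3, 0.437 of WT, and was also called with the pooled spread (adjusted p = 0.0314). Its partner ITGB4 had 2.20, 1.99 and 2.29 in WT and -1.01 in KO3 (0.111 of WT, adjusted p = 7.64e-05, pooled 0.358), but KO1 was as low at -1.08 and KO2 higher than WT at 3.60. The vitronectin receptor chain ITGB5 had 6.05, 6.10 and 6.20 in WT, 5.08 in KO3 and 6.50, 6.16 and 6.67 in the other clones. ITGB1, the shared beta chain, changed least among the called members (7.59, 7.63 and 7.57, then 7.26), and ITGAV was not called (difference -0.27).

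ITGA6 and ITGB4 form the hemidesmosome with COL17A1 and plectin. The hemidesmosome list was mixed: of 9 genes tested, 4 were lower, 2 higher and 3 not called. Its sum was 306 to 328 RPKM in WT and 345 in KO3. COL17A1 was lower, at 1.39, 1.09 and 1.01 in WT and -2.19 in KO3, as in KO1 (-2.07). The laminin chain LAMA3 was lower (4.33, 4.41 and 4.47, then 3.22), and LAMB3 was not called (difference 0.48). PLEC did not differ by more than 0.01. Across collagens and other matrix genes 13 of 39 were higher and 17 lower, where 15.0% and 19.7% of all tested genes were. With the pooled spread 1 of the 39 was called against WT, and 2 were called lower against the other clones. COL6A2 had 5.85, 5.73 and 5.78 in WT, 5.89, 6.28 and 5.93 in the other clones and 4.19 in KO3, 0.332 of WT (adjusted p = 0.000147, pooled 0.0434). Tenascin C, TNC, was higher at 1.42, 1.22 and 1.11 and then 3.91 (6.32-fold, pooled 0.102), with 2.60, 3.27 and 1.87 in the other clones. Fibronectin, FN1, was lower (7.04, 7.05 and 7.22, then 5.74), as in KO1 (5.07) and KO2 (5.51).

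Proteases and inhibitors that act on matrix were lower in 8 of 19 and higher in 5, of which MMP16 and MMP24 passed the filter only through KO3. With the pooled spread 0 of the 19 were called, and 19.7% of all tested genes were lower. Urokinase, PLAU, had 5.94, 5.92 and 6.06 in WT, 4.23 in KO3, and 7.30, 3.90 and 6.91 in KO1, KO2 and KO4. The metalloprotease inhibitor TIMP1 had 7.52, 7.35 and 7.40 and then 6.40, with 6.96, 8.30 and 8.91 elsewhere. CTGF, an output of both TGF-beta and YAP signalling, fell from 6.13, 6.05 and 6.04 to 4.70 and lay below all 6 others (adjusted p = 0.00025, pooled 0.0986). In the list of TGF-beta and activin genes 7 of 17 were lower and 1 higher, and KO3 was the lowest of the 7 libraries in 7. It was lowest in 19.4% of all tested genes. With the pooled spread 0 of the 17 were called against WT, and 2 were called lower against the other clones. YAP1, a gene of distal 11q, was lower (4.31, 4.29 and 4.09, then 3.22), with 3.09, 3.60 and 3.32 in the other clones.

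Epithelial surface programmes were in part lower in KO3 and showed large differences among the other clones. Over all tested genes 19.7% were lower. Of 28 epithelial junction genes 10 were lower and 3 higher, and without WT2 6 were lower and 1 higher. Mucosal secretory genes were lower in 7 of 12 and higher in 3, with a sum of 584 to 628 RPKM in WT and 611 in KO3. Clade B serpins, intracellular protease inhibitors of squamous and mucosal epithelium, were lower in 6 of 7 (median -1.78, against -1.58, -1.29 and 0.08 in KO1, KO2 and KO4), and keratins in 7 of 8 with 1 higher. SERPINB4 had 1.27, 2.10 and 2.17 in WT and -6.22 in KO3, and SERPINB5 (maspin) had 1.70, 1.62 and 1.36 and then -1.13. KRT19 had 7.21 to 7.61 in WT and 5.83 in KO3, and KRT8 had 7.31, 7.20 and 7.07 and then 5.83, near KO1 at 5.64. E-cadherin, CDH1, had 0.75, 0.78 and 0.47 in WT, -2.20 in KO3, and -5.86, 1.96 and -2.83 in the other clones. EPCAM was not called (difference 0.24). With the pooled spread 0 serpins and 0 keratins were called.

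Of 11 antimicrobial and S100 genes 8 were lower and 0 higher, where 19.7% of all tested genes were lower. With the pooled spread 0 of the 11 were called. S100P had 6.72, 7.15 and 7.77 in WT and 3.18 in KO3, and S100A4, a motility-linked calcium-binding protein, had 10.06, 10.12 and 9.99 and then 8.35, near KO1 at 8.09. Among plasma proteins and regulators typical of endoderm and liver, 10 of 17 were lower and 2 higher, and 0 were called with the pooled spread. The fibrinogen chain FGA had 1.09, 1.55 and 1.42 in WT and -3.72 in KO3, and KO2 stood above WT at 3.54 while KO1 and KO4 were at the level without reads (-9.84). AGR2, a disulfide isomerase of mucous cells, was kept in KO3 (8.72, 8.71 and 8.59, then 9.04), where KO1 had -1.79 and KO4 5.95. Aldo-keto reductases led the NRF2 targets, of which 19 of 35 were lower and 2 higher: AKR1B10 had 5.69, 5.71 and 5.31 in WT and 1.38 in KO3, near KO4 at 1.61. Of the 35, 11 were lower without WT2, 13 against neighbours and 0 with the pooled spread.

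Interferon-stimulated genes, the antiviral genes that interferon signalling switches on, were lower in 20 of 46 and higher in 2. KO3 was the lowest of all 7 libraries in 21 of the 46, where it was lowest in 19.4% of all genes, and the list median was -0.38 in KO3 and -0.02, 0.46 and 0.41 in KO1, KO2 and KO4. OAS1 had 2.06, 2.16 and 1.99 in WT and -0.11 in KO3, but KO1 was lower at -0.64. OAS2 had 0.78, 1.21 and 1.13, then -0.88, and RSAD2 had -0.30, 0.05 and 0.14, then -2.08, with no other clone below WT by as much. IFI27 had 1.32, 1.36 and 1.57 in WT, -0.16 in KO3 and 1.21, 1.63 and 1.06 in the other clones (adjusted p = 0.0011, pooled 0.0973). STAT2 (difference -0.06) and ISG15 (-0.19) were not called, and IFI44 was higher (5.20, 5.43 and 5.22, then 5.89). None of the 46 was called against WT with the pooled spread, and 1 was called lower against the other clones.

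Outputs of the MAPK pathway were lower in 7 of 24 and higher in 2, where 19.7% of all genes were lower, with a list median of -0.09. Without WT2, 4 were lower. With the pooled spread 0 were called against WT, and 1 was called higher against the other clones. The ERK phosphatase DUSP6 had 4.52, 4.81 and 4.92 in WT, 3.07 in KO3 and 3.14 in KO1, with 5.02 and 4.88 in KO2 and KO4. SPRY4 had 3.92, 4.05 and 4.20 and then 3.15. SPRY2 was higher (3.85, 3.84 and 3.75, then 4.35), and the ETS factors ETV4 (0.13) and ETV5 (-0.38) and FOSL1 (0.43) were not called. Among fatty acid genes 4 of 21 were higher and 6 lower. Fatty acid synthase, FASN, reached 7.21 from 6.20, 6.08 and 6.22 (2.06-fold, pooled 0.0863), above the other clones at 6.29, 6.25 and 6.56, and FADS2 was lower (4.14, 4.37 and 4.60, then 3.09), with 2.29 to 3.12 in the other clones. Ribosomal protein genes were lower in 18 of 77, a share near the 19.7% of all genes. They were higher in 1, a smaller share than the 15.0% of all genes. Without WT2, 7 were lower, and after quantile normalization 13 were lower and 5 higher. RPS25, a gene of distal 11q, had 7.11, 7.23 and 7.14 and then 6.09, with 6.36, 6.07 and 6.20 in the other clones.

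**Figure D4:**
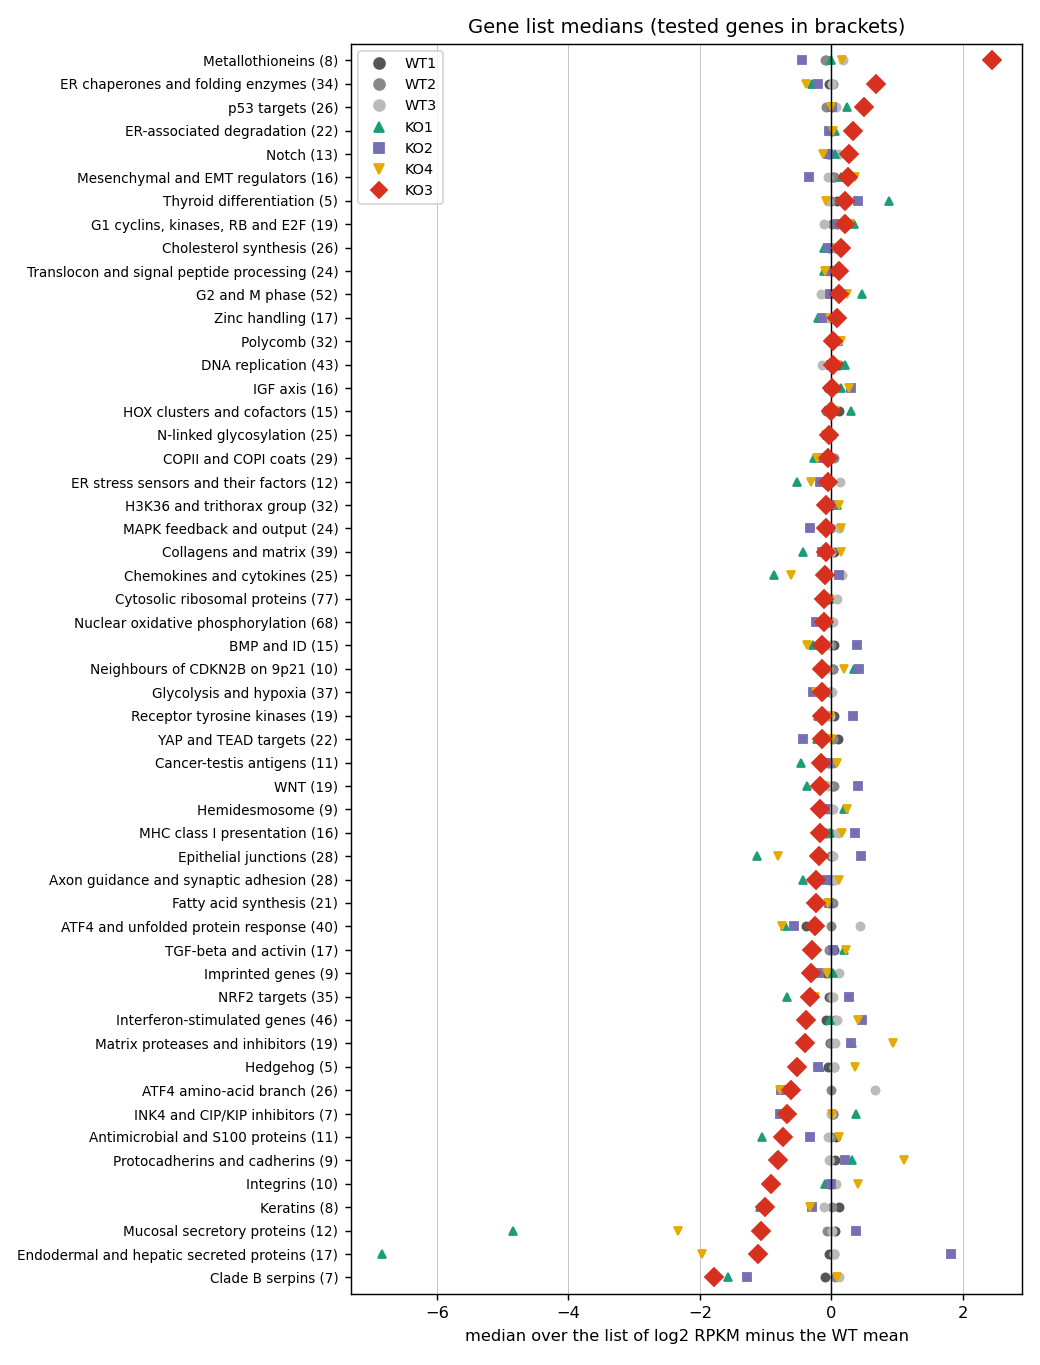
Median difference from the WT mean (x axis, log2 units) of each gene list with at least 5 tested genes, by library, ordered by KO3. KO3 (red diamonds) is farthest to the right for metallothioneins (2.44) and ER chaperones (0.67), where the other clones lie near or below 0, and is farthest to the left of all libraries for integrins (-0.92), while KO1, KO2 and KO4 spread more widely for hepatic and mucosal secreted proteins.

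Outside the lists, several genes set KO3 apart from every other library in both pooled tests. SMARCA1, an ISWI chromatin remodelling ATPase (SNF2L) on the X chromosome, had 3.98, 4.21 and 4.11 in WT, 3.25, 3.91 and 3.14 in the other clones and 6.60 in KO3, 5.64-fold above WT (adjusted p = 5.56e-05, pooled 0.0486). Genes within 5 Mb of it had a median of -0.17 in KO3. STEAP3, an endosomal iron reductase, had 3.85, 3.78 and 3.72 in WT, 3.58, 3.71 and 3.63 in the other clones and 5.05 in KO3 (2.41-fold, pooled 0.0316). The 6 other libraries lay close together for this gene, and KO3 stood above all of them.

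Genes called lower in both pooled tests, with KO3 below every other library, came from many pathways. JAZF1, a zinc finger cofactor, had 0.64, 0.68 and 0.47 in WT and -2.14 in KO3, where KO1, KO2 and KO4 had gone the other way to 2.07, 2.32 and 1.64. RAB6B, a Golgi GTPase, had 1.32, 1.52 and 1.34 in WT and -2.23 in KO3, with 0.67, 1.09 and 0.62 in KO1, KO2 and KO4. ADIRF had 1.79, 1.84 and 1.58 and then -1.63. BHMT2, a homocysteine methyltransferase, had 2.90, 2.89 and 3.13 and then -0.19, with 2.25, 1.81 and 1.97 in the other clones. For RAB6B and BHMT2 the other clones thus lay below WT as well. PROS1, the anticoagulant protein S, had 2.57, 2.74 and 2.75 and then 0.96, and PLPP1, a lipid phosphate phosphatase, had 3.17, 3.21 and 3.22 and then 1.64, with 3.09, 3.31 and 3.17 in the other clones. SRPX, with 3.63, 3.74 and 3.96 and then 1.54, lies on the short arm of X, where its neighbours had a median of -0.87.

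**Figure D5:**
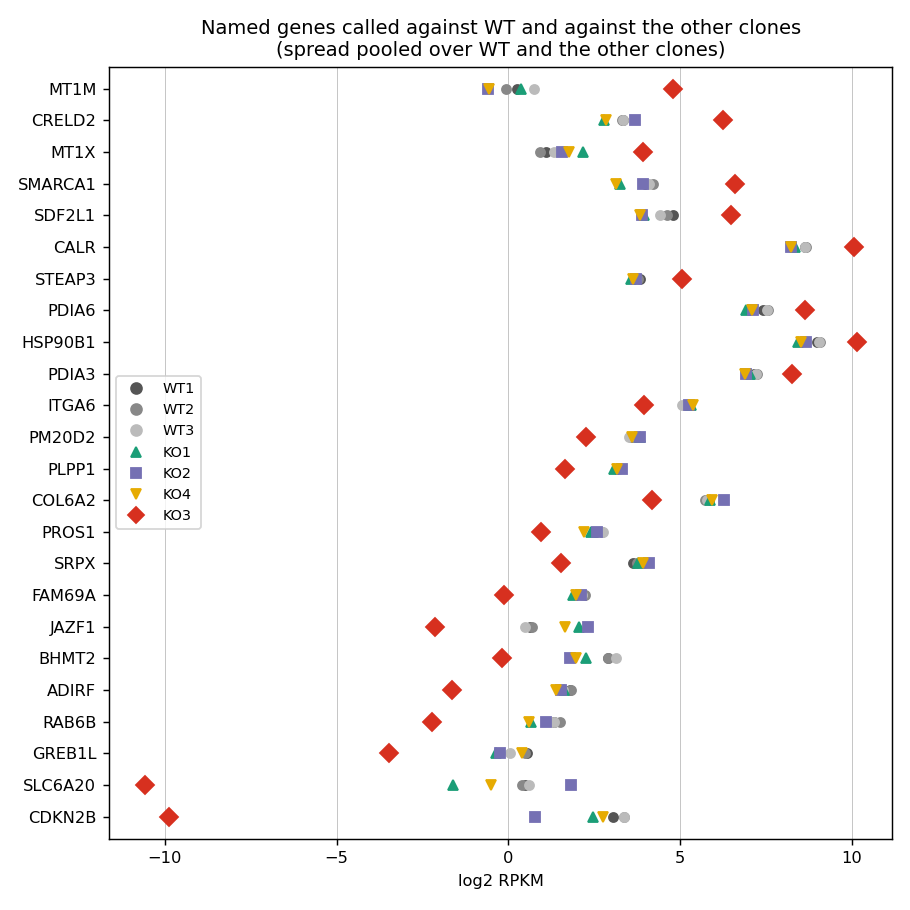
Levels in each library (x axis, log2 RPKM) of 24 named genes that were called against WT and against the other clones with the pooled spread and lay outside all 6 other libraries. KO3 (red diamonds) stands to the right in 10 genes and to the left in 14, and CDKN2B and SLC6A20 lie at the level without reads.

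By a description that uses no test, 75 genes (0.663%) differed from the WT mean by at least 1 log2 unit in KO3 while each other clone stayed within 0.5 of it, 39 higher (0.345%), 4 of them tested only through KO3, and 36 lower (0.318%). CALR, PDIA3 with its pseudogene PDIA3P1, DNAJB11, CRELD1 and ALG12 were among the higher. LPCAT1, a lysophospholipid acyltransferase, had the largest increase, from 1.99, 1.86 and 1.61 to 3.50 with 2.11, 1.94 and 1.55 in the other clones. ITGA6, COL6A2 and IFI27 were among the lower, and ADIRF fell most. These genes were picked from the 75 after their values were seen.

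The largest increases in KO3 were in part shared with other clones. SPOCK1, a secreted proteoglycan, had -2.47, -3.05 and -2.94 in WT and 3.98 in KO3, with 4.27 in KO1 and 3.52 in KO4 but -0.58 in KO2. SLITRK4, a synaptic adhesion protein, had -6.58, -5.77 and -5.12 in WT and 2.09 in KO3, with 1.56 and 0.85 in KO1 and KO4 and -7.95 in KO2. PRICKLE1, a planar polarity protein, had -4.15, -4.01 and -4.68 in WT, 1.48 in KO3, and 2.48, -1.52 and 1.37 in the other clones. RNF212, a meiotic crossover factor, had -1.68, -1.90 and -2.05 in WT, 1.29 in KO3, and 1.56, 1.33 and 1.57 in the other clones, and the glutamate transporter SLC1A1 reached 2.51 in KO3 with a mean of 2.25 ± 0.44 (SD, n = 3) in the others. Against WT, RNF212 and SLC1A1 were called with the pooled spread (adjusted p = 0.0313 and 0.0344), and against the other clones they were not (0.778 and 0.739). All comparisons with WT use the same 3 WT samples.

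Levels also differed over whole stretches of chromosomes, taken as medians of 10 Mb windows with at least 20 tested genes after each library's own median was set to 0. Of 216 windows, KO3 lay beyond 0.3 log2 units in 40, with 15 above and 25 below, and WT samples ranged from -0.11 to 0.07. In 9 of the 40 windows each other clone stayed within 0.15. On X below 80 Mb the median was -0.73 in KO3 and -0.67 in KO1, against 0.14 and 0.08 in KO2 and KO4, and 144 of 186 genes there were lower (77.4%). Distal 11q was low in every clone, at -0.64 in KO3 and -0.62, -0.64 and -0.71 in KO1, KO2 and KO4.

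KO3 was the only clone with a negative median over chromosomes 3 and 20, at -0.23 and -0.28, where KO1, KO2 and KO4 had 0.22, 0.10 and 0.10 and 0.13, 0.15 and 0.09. Chromosomes 16 and 22 were high in KO3 (0.23 and 0.28), and 17 was high in all 4 clones (0.29 in KO3). Copy number was not measured. Set against the median of genes within 5 Mb, CRELD2 still differed by 2.47, CALR by 1.22, MT1M by 4.31 and ITGA6 by -1.12, and 2680 genes were called, while FASN fell to a difference of 0.67 and SRPX to one of -1.37.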

How the data were processed

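The authors deposited 1 table of log2 RPKM values for 7 libraries. The tools named in the submitters' processing notes are HTSeq 0.11.2, edgeR, STAR 2.5.3a and Trim Galore 0.4.1, with build hg38. The annotation, strand setting, prior count and depth are not given in the sources used here, and precision is limited by a single KO3 library. Genes above 0 in at least 3 libraries or in KO3 were tested with limma 3.58.1 (R 4.3.3, variance trend, Benjamini-Hochberg), with calls at an adjusted p below 0.05. The spread comes from WT, and KO3 is assumed to vary like WT. Alternatives were other filters, scalings, a pseudocount of 1, no trend, neighbour centring within 5 Mb, a pooled spread, and each WT sample left out. The test was also run on simulated data in which KO3 varied like the samples it was compared with. The simulation therefore does not check the assumption that KO3 varies like WT. Positions were matched for 12530 genes (95.3%) by symbol or synonym in GENCODE release 29. Members and lists were chosen with earlier results of these data known. Genes are named by size (12 a direction), by being particular to KO3 (10 a direction), by list (5 each) and at 9p21. Unnamed transcripts were counted only. Some results are not reported here.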

Additional observations from a re-analysis of the deposited data

Results flagged for a closer look

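In 24 named genes the KO3 change differed from that of KO1, KO2 and KO4 by a test of the difference itself (limma, spread pooled over WT and the other clones, a choice made after the planned comparison had called 0 genes), and KO3 lay outside all 6 other libraries. In the KO3 library minus the mean of the other clones on the log2 scale, the higher genes were MT1M at 5.05, SMARCA1 at 3.17, CRELD2 at 3.15, SDF2L1 at 2.58, MT1X at 2.09, CALR at 1.81, HSP90B1 at 1.61, PDIA6 at 1.60, STEAP3 at 1.41 and PDIA3 at 1.32.

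The lower genes were CDKN2B at -11.87 and SLC6A20 at -10.49, both at the level without reads in KO3, so that depth sets these sizes. JAZF1 stood at -4.15, GREB1L at -3.39, ADIRF at -3.15, RAB6B at -3.03, SRPX at -2.38, BHMT2 at -2.19, FAM69A at -2.13, COL6A2 at -1.84, PLPP1 at -1.55, PM20D2 at -1.48, PROS1 at -1.44 and ITGA6 at -1.39.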

How the results depend on the processing

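No paired analysis was possible because KO3 is 1 library. The count against WT (3926) was 1857 to 5064 when each WT sample was left out and 37 with the spread pooled over WT and the other clones; under the other alternatives it stayed within 1.5 times. The ASH1L difference kept its size of -0.87 but lost its call with the pooled spread. Against the other clones 71 genes were called with the pooled spread and 0 in all planned settings, so 29 genes were particular to KO3 with the pooled spread and 0 otherwise. The descriptive count of 75 was 47 on the scale of log2(RPKM + 1). Set against neighbours within 5 Mb, KIF4A reversed to 0.008 and KLHL9 to 0.513, and FOCAD was called at 0.865. IFT74, at WT level, changed sign to 0.0319 after median centring and 0.0394 after quantile normalization, and ran from -0.0469 to 0.0214 when each WT sample was left out. Of 267 named genes 240 lost their call with the pooled spread, 41 without WT2 and 39 against neighbours. List medians changed sign in 9 of 55 lists against neighbours.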
